A study of Dimocarpus longan with 9 samples.

Results

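The flower library of longan (Dimocarpus longan), a subtropical fruit tree of the soapberry family, was compared with its flower bud library. Both were chosen by their tissue labels and are 2 of the 9 RNA-seq libraries made from the cultivar “SJM”, which flowers all year round. The other 7 came from seed, pulp and pericarp (the peel of the fruit), young fruit, leaf, stem and root. Each tissue gave 1 library of poly(A) RNA, no treatment is named for any of them, and the sources state neither the stage of the buds, nor how far the flowers had opened, nor how many trees or flowers were pooled. No difference below has a replicate check, and no p-value is given.

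A flower bud holds meristems and young organs in which sepals, petals, stamens and carpels are laid down, whereas in the flower these organs grow to size, shed pollen and receive it. MADS-box, LFY, YABBY and other transcription factors set the identity of the organs, and enzymes that loosen and rebuild pectin and other wall polymers act in growing organs and in pollen. In RNA from whole organs, fewer cells of a type and less RNA per cell cannot be told apart.

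The difference of a gene was log2((flower FPKM + 1)/(flower bud FPKM + 1)), so a positive value means more in flower. FPKM is a fragment count divided by transcript length and library size, and the 1 FPKM added makes differences of weakly expressed genes smaller. A gene was counted as higher in a tissue when its difference was at least 1 in size (2-fold). A gene under 1 FPKM in both libraries cannot reach this limit, so the share of a group that is counted also depends on its expression level. Of the 30014 genes in the table, 24564 were above 0 FPKM in flower or flower bud and entered the comparison. The flower library had 22407 genes above 0 and the flower bud library 23118. The summed FPKM was 909149 in flower and 911164 in flower bud, and the median over the compared genes was 5.35 FPKM in flower and 6.64 FPKM in flower bud. The table holds no counts, so the absolute depth is unknown from it. Among 741 genes with low values in both libraries, the commonest ratio, shared by 123 genes within 0.03 on the log2 scale, put the flower library 0.11 log2 units deeper than the flower bud library.

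More genes were higher in flower bud than in flower. In flower 1845 genes were at least 2-fold higher (7.51% of those compared), and in flower bud 2769 genes were (11.3%), which makes 18.8% in either direction. At 4-fold the numbers were 552 in flower (2.25%) and 742 in flower bud (3.02%), together 5.27%. The genes higher in flower made up 20.7% of the summed FPKM of flower and 5.69% of that of flower bud. The genes higher in flower bud made up 4.73% of the summed FPKM of flower and 18.2% of that of flower bud. The median difference over all compared genes was -0.15, and over the 16373 genes above 1 FPKM in both libraries the median ratio of flower to flower bud was -0.16 on the log2 scale. When the libraries were scaled to remove this shift, 2219 genes were higher in flower (9.03%) and 2378 in flower bud (9.68%), so that the directions were nearly even. All differences below are as deposited and are to be read against this shift.

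**Figure D1:**
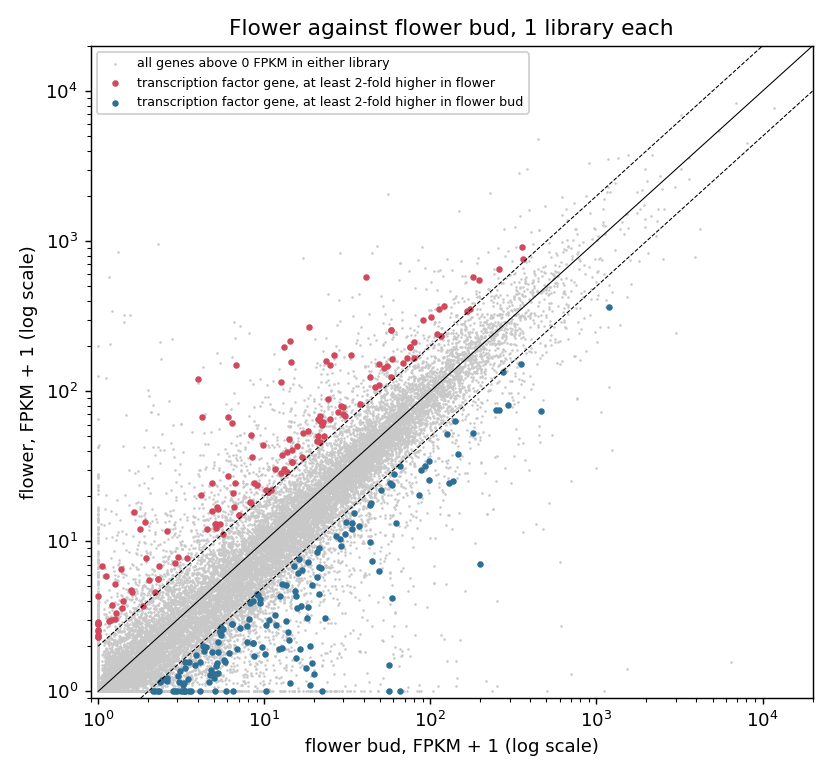
FPKM + 1 of each compared gene in flower (vertical axis) against flower bud (horizontal axis), both on log scales, with 1 point per gene. Solid and dashed lines mark equal values and 2-fold differences, and the transcription factor genes past 2-fold are coloured, 139 higher in flower and 157 higher in flower bud.

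The labels were held against the genes of floral identity. Dlo_005438.1, the single gene of the LFY type, whose Arabidopsis namesake LEAFY gives a meristem its floral fate, had 0.10 FPKM in flower and 1.09 FPKM in flower bud. It had at most 0.62 FPKM in the other 7 tissues, the value of root. Dlo_010016.1, the single gene of the NOZZLE type, which in Arabidopsis is needed for the first cells of the pollen and ovule lineages, had 0.15 FPKM in flower and 2.07 FPKM in flower bud (difference -1.42). It stayed at or below 0.50 FPKM elsewhere. Both genes were thus highest in flower bud of the 9 libraries, though at no more than 2.07 FPKM.

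MIKC-type MADS-box genes, which include those that specify sepals, petals, stamens and carpels, had similar summed levels in flower (1428.7 FPKM) and flower bud (1382.0 FPKM). The sum was 107.5 FPKM in root, 301.4 in stem and 567.1 in leaf, but 1920.9 in young fruit and 2071.8 in pericarp, so the type as a whole does not mark the 2 floral libraries. Of 24 MIKC genes in the table, 22 were above 0 in flower or flower bud. By the 2-fold rule 1 was higher in flower (4.55%, beside 7.51% of all compared genes) and 6 in flower bud (27.3%, beside 11.3%). The median difference was -0.30, or -0.28 after scaling, beside -0.15 and -0.04 over all compared genes.

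Most of the stronger MIKC genes differed by less than 2-fold. Dlo_008014.1 had 616.15 FPKM in flower and 365.63 FPKM in flower bud (difference 0.75). Dlo_031930.1 had 335.69 FPKM in flower and 375.62 FPKM in flower bud (-0.16), and Dlo_021466.1 had 239.99 FPKM in flower and 272.06 FPKM in flower bud (-0.18). These genes were at or below 1.00 FPKM in root, stem and leaf and reached 199.21 to 444.41 FPKM in young fruit. Dlo_031156.1 had 61.39 FPKM in flower and 103.49 FPKM in flower bud (-0.74) and was at most 0.85 FPKM in root, stem and leaf. Dlo_003537.1, with 78.48 FPKM in flower and 58.58 FPKM in flower bud (0.42), was unlike these in its wide expression, with 1240.74 FPKM in pericarp, 142.99 FPKM in leaf, 104.97 FPKM in stem and 17.01 FPKM in root.

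A further 7 MIKC genes of at least 1 FPKM in flower or flower bud also stayed under 2-fold. Dlo_031929.1 had 22.31 FPKM in flower and 20.93 FPKM in flower bud (0.09). Dlo_026514.1 had 12.92 FPKM in flower and 23.44 FPKM in flower bud (-0.81), and at most 5.90 FPKM, in stem, elsewhere. Dlo_028609.1, Dlo_003028.1, Dlo_005595.1, Dlo_026285.1 and Dlo_034152.2 had between 0.74 and 7.74 FPKM in flower and between 1.38 and 6.89 FPKM in flower bud, with differences from -0.46 to 0.15. Of these, Dlo_026285.1 was mainly a gene of seed, 762.77 FPKM, and Dlo_005595.1 of leaf, 132.28 FPKM.

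Dlo_004585.1 stood apart, since it had 24.43 FPKM in flower and 97.22 FPKM in flower bud (-1.95) and at most 0.21 FPKM, in seed, in the other 7 tissues. The other 5 MIKC genes higher in flower bud were weaker. Dlo_008860.1 had 4.12 FPKM in flower and 12.43 FPKM in flower bud (-1.39). Dlo_030807.1, annotated as MADS1 with a Swiss-Prot entry that is Arabidopsis SHATTERPROOF1, a gene of carpel and fruit margins, had 4.22 FPKM in flower and 11.78 FPKM in flower bud (-1.29), and 108.66 FPKM in young fruit. Dlo_016963.1 had 2.05 FPKM in flower and 7.10 FPKM in flower bud (-1.41). Dlo_025737.1 had 1.66 FPKM in flower and 6.16 FPKM in flower bud (-1.43), and was at or near 0 everywhere else. Dlo_009139.1, with 0.33 FPKM in flower and 4.28 FPKM in flower bud (-1.99), was mainly a gene of leaf (125.61 FPKM) and stem (41.86 FPKM). The 1 MIKC gene higher in flower, Dlo_026071.1, had 3.71 FPKM in flower and 0.57 FPKM in flower bud (1.58).

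YABBY genes, which in Arabidopsis mark the lower side of leaves and floral organs and, in some members, act in carpels and ovules, went the other way. Of the 6 genes of the type, 4 were higher in flower (beside 7.51% of all compared genes) and 0 in flower bud (beside 11.3%). The median difference was 1.45. Dlo_026074.1 had 195.71 FPKM in flower and 12.12 FPKM in flower bud (difference 3.91) and was listed at 0 in all 7 other tissues. Dlo_019359.1 had 174.20 FPKM in flower and 25.37 FPKM in flower bud (2.73), but its highest level was in seed, 322.35 FPKM. Dlo_027352.1 had 52.03 FPKM in flower and 16.08 FPKM in flower bud (1.63), but was highest in young fruit, 156.76 FPKM. Dlo_023494.1 had 11.34 FPKM in flower and 4.14 FPKM in flower bud (1.26), but was highest in seed, 30.67 FPKM. The other 2 differed by less than 2-fold. Dlo_010752.1 had 82.71 FPKM in flower and 108.09 FPKM in flower bud, and Dlo_018599.1 had 0.22 FPKM in flower and was listed at 0 in flower bud.

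**Figure D2:**
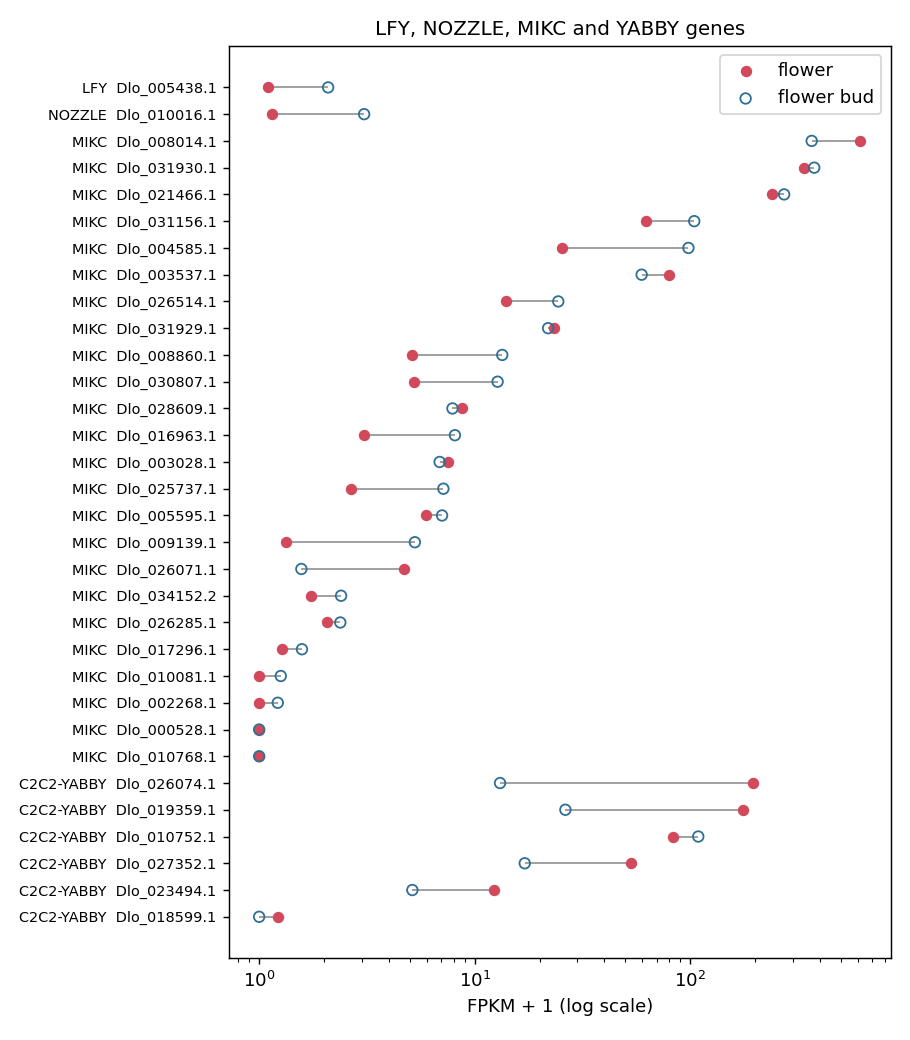
FPKM + 1 (log scale) of every LFY, NOZZLE, MIKC and YABBY gene in flower (filled circles) and flower bud (open circles), 1 library each, with a line joining the values of a gene. The LFY and NOZZLE genes and most MIKC genes lie to the left in flower, while 4 of the 6 YABBY genes lie at least 2-fold to the right in flower.

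Over all types, 1529 of the 1611 transcription factor genes on the study's list of 64 types were in the table, 1320 were compared and 209 were at 0 in both libraries. The 2-fold rule counted 139 as higher in flower (10.5%, beside 7.51% of all compared genes) and 157 as higher in flower bud (11.9%, beside 11.3%). After scaling the counts were 169 in flower and 143 in flower bud, and among genes of at least 5 FPKM in flower or flower bud they were 113 in flower and 104 in flower bud, so which direction had more depends on the scaling and on the minimum level. The median difference was -0.14, close to the -0.15 of all compared genes. No type was tested against the others, and medians of types with fewer than 10 genes rest on a few values. None of the type medians printed here changed sign after scaling, apart from that of all transcription factor genes, which came to 0.00.

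Several types with roles in hormone and stress responses had more genes higher in flower than in flower bud. The ARF, NAC, bZIP and RAV types did not. Their counts are to be read beside the 7.51% higher in flower and 11.3% higher in flower bud of all compared genes. Of 100 ERF genes, the ethylene response factors, 21 were higher in flower and 8 in flower bud (median 0.25). The Tify type, which holds the JAZ repressors of jasmonate signalling, had 5 of 12 higher in flower and 1 in flower bud (median 0.83). Among heat shock factors (HSF) 5 of 17 were higher in flower (29.4%) and 2 in flower bud (11.8%, near the share of all compared genes), with a median of 0.42. Among GRAS genes, the type of the DELLA proteins of gibberellin signalling, 6 of 42 were higher in flower and 2 in flower bud (0.05). WRKY genes, many of them pathogen responsive, were divided, with 11 of 54 higher in flower (20.4%) and 9 in flower bud (16.7%). Both shares were above those of all compared genes (median 0.26). In the small SRS type, whose Arabidopsis members act in the style and stigma, 2 of 4 genes were higher in flower, and in the DBP type 2 of 4 were, with 0 higher in flower bud in both types. By contrast, 0 of 17 ARF genes were higher in flower and 3 in flower bud, or 2 in each after scaling. Of 89 NAC genes 3 were higher in flower and 8 in flower bud. Of 49 bZIP genes 5 were higher in flower and 8 in flower bud, and of 3 RAV genes 0 and 2.

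The following members were chosen after their values were seen. The Tify gene Dlo_023118.1 had 652.61 FPKM in flower and 259.33 FPKM in flower bud, and leaf had more than both, 1083.39 FPKM. The WRKY gene Dlo_012276.1 had 577.72 FPKM in flower and 178.46 FPKM in flower bud and at most 34.62 FPKM elsewhere. The HSF type held opposite cases among its stronger genes. Dlo_000252.1 had 299.42 FPKM in flower and 89.37 FPKM in flower bud, whereas Dlo_005638.1 had 80.32 FPKM in flower and 294.40 FPKM in flower bud.

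Other types had more genes higher in flower bud, to be read beside the 7.51% higher in flower and 11.3% higher in flower bud of all compared genes. GRF genes, the growth-regulating factors of young dividing organs, had 0 of 8 higher in flower and 3 in flower bud (median -0.64). NF-YB genes, subunits of the CCAAT-binding complex, had 0 of 9 higher in flower and 4 in flower bud (-0.50), and GATA-type zinc finger genes had 0 of 19 higher in flower and 5 in flower bud (-0.39). Of 41 B3 genes 1 was higher in flower and 7 in flower bud (-0.46). Of 21 Dof genes 1 was higher in flower and 5 in flower bud (0.01). Of 74 C2H2 zinc finger genes 3 were higher in flower (4.05%) and 10 in flower bud (13.5%), the last a share near that of all compared genes, and after scaling 5 were higher in flower and 9 in flower bud. LOB genes, named for the boundaries of lateral organs, were divided, with 5 of 33 higher in flower and 8 in flower bud (-0.44). The large bHLH and MYB types were also divided. Of 91 bHLH genes 16 were higher in flower and 13 in flower bud, and of 104 MYB genes 14 were higher in flower and 17 in flower bud. None of 18 FAR1 genes passed 2-fold.

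**Figure D3:**
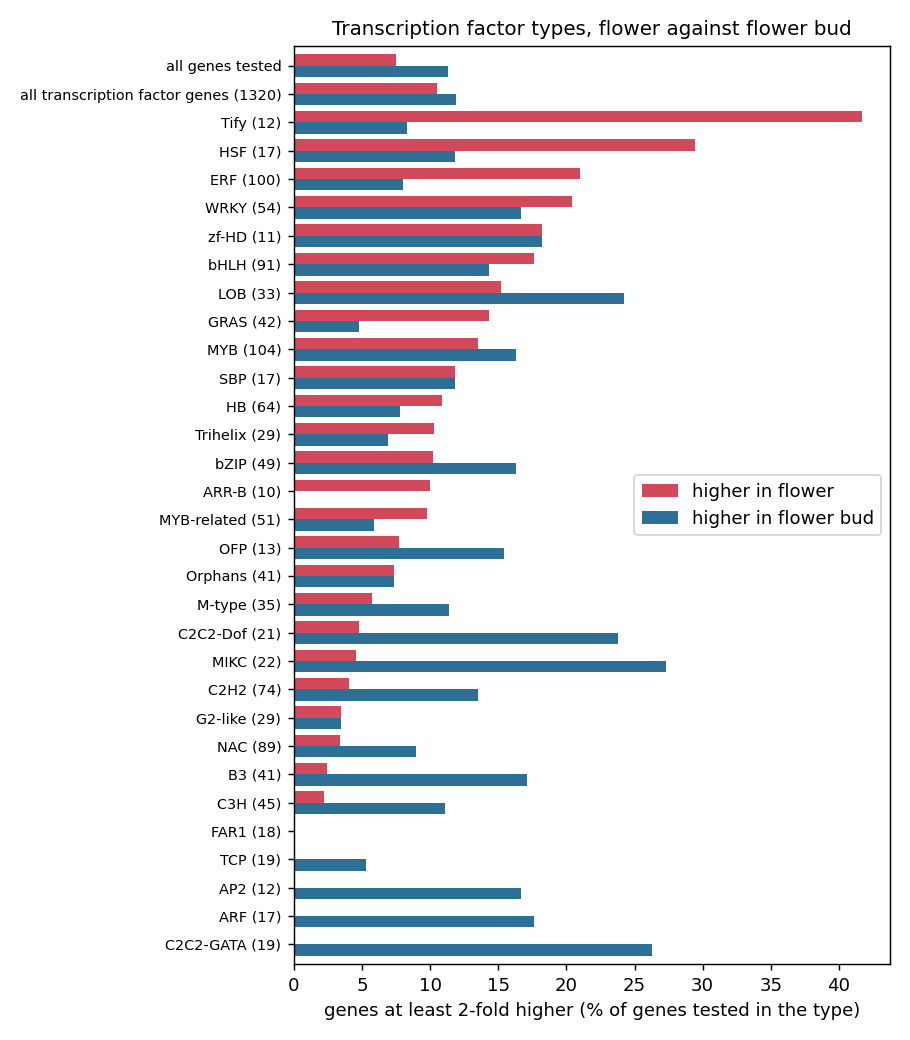
Percent of compared genes at least 2-fold higher in flower (upper bar) and in flower bud (lower bar) for all compared genes, all transcription factor genes and each type with at least 10 compared genes, whose number is in brackets. Tify, HSF, ERF and WRKY have the longest flower bars, and MIKC, C2C2-GATA, LOB and C2C2-Dof have the longest flower bud bars.

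Among transcription factor genes of at least 5 FPKM, the 12 largest differences towards flower came from 7 types. Of the 2 zf-HD genes, a plant-specific zinc finger homeodomain type, Dlo_026217.1 had 119.82 FPKM in flower and 2.97 FPKM in flower bud (difference 4.93), the largest of the 12. Dlo_026831.1 had 266.07 FPKM in flower and 17.56 FPKM in flower bud (3.85), and 630.21 FPKM in pulp. The Trihelix gene Dlo_002457.1 had 149.55 FPKM in flower and 5.79 FPKM in flower bud (4.47), and 607.55 FPKM in pericarp. Dlo_026217.1 was highest in flower of all 9 tissues, while the other 2 genes had their highest values in fruit tissue.

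MYB genes, a type that controls pigment, cell shape and anther genes among others, gave 4 of the 12. Dlo_016623.1 had 572.78 FPKM in flower and 40.07 FPKM in flower bud (3.80), was at 0.29 FPKM in pericarp and was listed at 0 in the other 6 tissues. Dlo_003602.1 had 14.64 FPKM in flower and 0.65 FPKM in flower bud (3.24) and was listed at 0 in all other tissues. Both were floral in these 9 libraries. By contrast, Dlo_030346.1 had 66.77 FPKM in flower and 3.24 FPKM in flower bud, but 86.39 FPKM in root. Dlo_031616.1 had 66.01 FPKM in flower and 5.06 FPKM in flower bud (3.47), but 164.43 FPKM in young fruit.

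The remaining 5 were the YABBY gene Dlo_026074.1 given above and genes of 3 other types. The bHLH gene Dlo_005407.1 had 216.84 FPKM in flower and 13.24 FPKM in flower bud (3.94), and the bHLH gene Dlo_000697.1 had 156.13 FPKM in flower and 13.55 FPKM in flower bud (3.43). The homeobox (HB) gene Dlo_026283.1 had 60.27 FPKM in flower and 5.42 FPKM in flower bud (3.25). The ERF gene Dlo_005618.1 had 113.43 FPKM in flower and 11.57 FPKM in flower bud (3.19). Of these 4, Dlo_000697.1 and Dlo_026283.1 were highest in flower of all 9 tissues, whereas Dlo_005407.1 was highest in pulp (515.05 FPKM) and Dlo_005618.1 in stem (152.41 FPKM).

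The 12 largest differences towards flower bud included 4 genes that were listed at 0 in flower, for which no fold is given. The bHLH gene Dlo_024244.1 had 64.78 FPKM in flower bud and the MYB gene Dlo_012406.1 had 9.24 FPKM, and both were listed at 0 in all 8 other libraries. The MYB-related gene Dlo_022430.1 had 55.02 FPKM in flower bud and at most 3.75 FPKM elsewhere, and the LOB gene Dlo_006606.1 had 21.23 FPKM in flower bud and at most 1.47 FPKM elsewhere. The bZIP gene Dlo_025756.1 was similar, with 0.30 FPKM in flower, 19.06 FPKM in flower bud (-3.95) and 0 in the other 7 tissues. The bHLH gene Dlo_032624.1 had 0.11 FPKM in flower and 17.82 FPKM in flower bud (-4.08), and at most 0.95 FPKM elsewhere.

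Of the others, all but the TCP gene were also clearly expressed outside the flower bud. The RAV gene Dlo_011586.1 had 0.49 FPKM in flower and 55.60 FPKM in flower bud (-5.25), with 22.82 FPKM in pulp. The HB gene Dlo_000093.1 had 6.08 FPKM in flower and 199.28 FPKM in flower bud (-4.82), and 100.06 FPKM in seed. The B3 gene Dlo_012160.1 had 0.13 FPKM in flower and 13.28 FPKM in flower bud (-3.66), and 119.83 FPKM in seed. Seed had the second highest value of the HB gene and the highest of the B3 gene. The bZIP gene Dlo_024982.1 had 3.16 FPKM in flower and 57.42 FPKM in flower bud (-3.81), and 95.88 FPKM in pericarp. The TCP gene Dlo_006156.1, of a type that regulates cell division in growing organs, had 0.54 FPKM in flower and 18.40 FPKM in flower bud (-3.66). Its highest level elsewhere was 3.73 FPKM, in stem. The NF-YB gene Dlo_003858.1 had 0.43 FPKM in flower and 16.93 FPKM in flower bud (-3.65), near its 15.03 FPKM in pericarp.

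Over the 9 tissues, 6 of the 12 genes with the largest differences towards flower had their highest value in flower, and 10 of the 12 towards flower bud had it in flower bud. Of all 139 transcription factor genes higher in flower, 41 peaked in flower and 98 in another tissue. Of the 157 higher in flower bud, 62 peaked in flower bud and 95 in another tissue. These genes were picked by their difference between flower and flower bud, so a gene towards flower cannot peak in flower bud, nor the reverse. The share of such peaks over all compared genes was not computed, so the counts do not show tissue specificity.

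**Figure D4:**
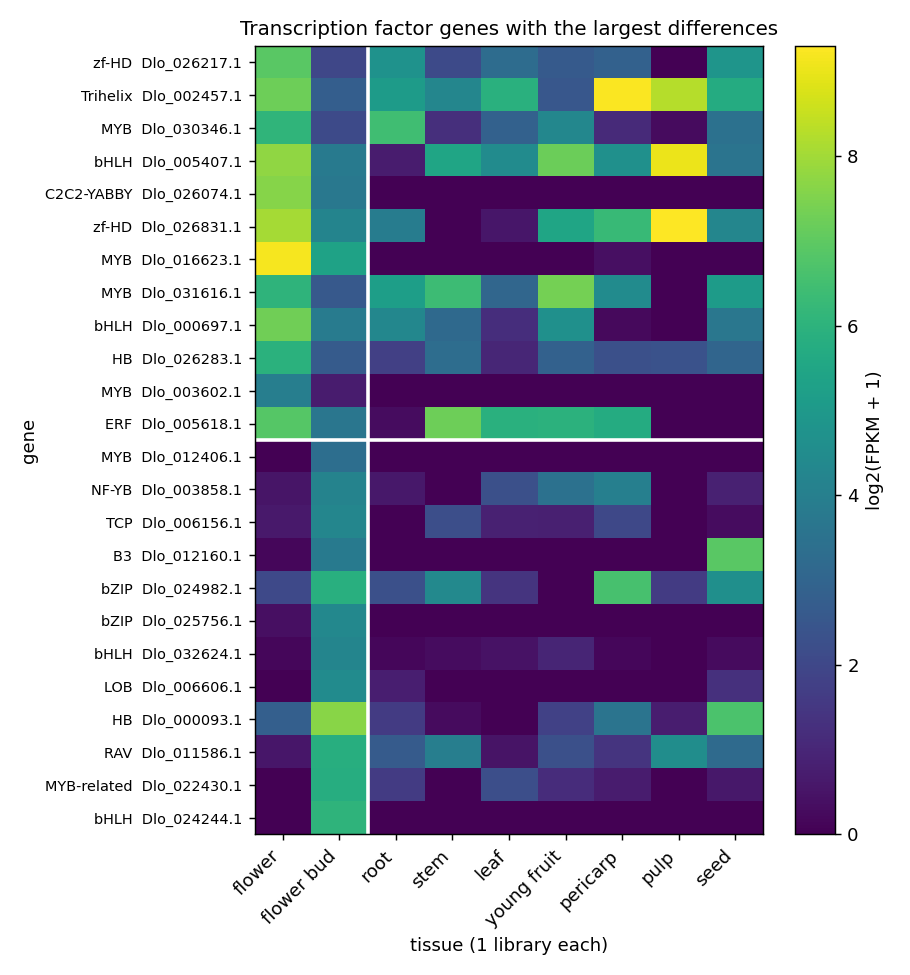
log2(FPKM + 1) of the 24 transcription factor genes with the largest differences, 12 towards flower (above the white line) and 12 towards flower bud (below it), in flower, flower bud and the other 7 tissues. Of the genes towards flower 6 peak outside both floral libraries, and of the genes towards flower bud 2 do.

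Gene families that the study listed as expanded in longan were then read by the Arabidopsis gene they contain. The list is held only in part, so members are those shown in it. Of 142 members in the table from 19 families, 131 were compared, and 31 were higher in flower and 19 in flower bud. Together these are 38.2% of the members, beside 18.8% of all compared genes. Counts of single families are to be read beside the 7.51% higher in flower and 11.3% higher in flower bud of all compared genes. No share matched for expression level was computed. Where a family has more than 1 named member, those beyond the one of largest difference were chosen after their values were seen. The families were picked by name and share tandem copies, so members are not independent, and how fragments shared by near-identical copies were assigned is not given in the sources used here.

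In the families acting on wall pectin, the largest differences lay in 1 block of genes and towards flower bud. Polygalacturonases cut the pectin backbone, and their family had 1 of 9 members higher in flower and 4 in flower bud, or 3 after scaling. Dlo_019491.1 had 39.84 FPKM in flower and 1245.33 FPKM in flower bud (difference -4.93). Dlo_019492.1 had 11.99 FPKM in flower and 430.51 FPKM in flower bud (-5.05), and Dlo_019493.1 had 24.30 FPKM in flower and 699.43 FPKM in flower bud (-4.79). With Dlo_019494.1, which had 2.25 FPKM in flower and 5.98 FPKM in flower bud, these genes carry consecutive numbers. How far fragments shared between copies enter their separate values was not tested. The largest level of Dlo_019491.1 in the other 7 tissues was 0.56 FPKM. The pectin methylesterases, which prepare pectin for cutting, had 1 of 5 members higher in flower and 0 in flower bud (median -0.07), and their inhibitor family had 0 of 6 higher in flower and 1 in flower bud (-0.41). The methylesterase Dlo_006482.1, listed at 0 in the other 7 tissues, had 40.65 FPKM in flower and 12.41 FPKM in flower bud (1.64), while the strongest methylesterase, Dlo_019934.1, had 78.30 FPKM in flower and 126.94 FPKM in flower bud (-0.69). Dlo_024765.1 of the methylesterase inhibitor family had 53.90 FPKM in flower and 100.08 FPKM in flower bud (-0.88) and at most 0.33 FPKM elsewhere.

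The berberine bridge enzyme-like family, FAD-linked oxidases named for an enzyme of alkaloid synthesis, leaned most towards flower, with 9 of 10 members higher in flower and 0 in flower bud (median 3.42). Dlo_010393.1 had 4779.59 FPKM in flower and 441.66 FPKM in flower bud (3.43) and at most 1.17 FPKM elsewhere. Dlo_005691.1 had 205.72 FPKM in flower and 0.18 FPKM in flower bud (7.45), and 147.45 FPKM in root. Dlo_005687.1 had 68.98 FPKM in flower and 0.47 FPKM in flower bud (5.57). All 5 genes from Dlo_005687.1 to Dlo_005691.1 carry consecutive numbers and were higher in flower. The part of shared fragments in their separate values was not tested either. A further gene with a berberine-like domain, Dlo_033878.1, had 13.34 FPKM in flower and 0.91 FPKM in flower bud (2.91).

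In the ERD6-like family of sugar transporters 2 of 3 members were higher in flower and 0 in flower bud. Dlo_020112.1 had 2068.67 FPKM in flower and 54.90 FPKM in flower bud (5.21) and at most 2.81 FPKM in the other 7 tissues. In the family of cell wall invertases, which split sucrose outside the cell, 0 of 8 were higher in flower and 1 in flower bud (12.5%, near the 11.3% of all compared genes), with a median difference of 0.02. That gene, Dlo_009656.1, had 7.16 FPKM in flower and 53.26 FPKM in flower bud (-2.73), while the strongest member, Dlo_011663.1, had 162.07 FPKM in flower and 154.46 FPKM in flower bud (0.07).

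Among families of secondary metabolism and defence, a family that contains laccases and other multicopper oxidases, together with ubiquitin ligases, had 5 of 11 members higher in flower and 0 in flower bud (median 0.94). Its member Dlo_021756.1, annotated as an L-ascorbate oxidase, was the highest gene of the flower library with 8311.40 FPKM in flower and 6910.74 FPKM in flower bud (0.27), and at most 234.56 FPKM, in stem, elsewhere. Dlo_019175.2 of the same family had 80.75 FPKM in flower and 9.81 FPKM in flower bud (2.92). In the CYP716A family of cytochromes P450, which oxidise triterpenes, Dlo_029276.1 had 138.95 FPKM in flower and 11.35 FPKM in flower bud (3.50), with 1 of 8 members higher in each tissue. The sulfotransferase family had 0 of 5 higher in flower and 3 in flower bud (-1.46). Dlo_008341.1 had 4.05 FPKM in flower and 25.78 FPKM in flower bud (-2.41), but 113.84 FPKM in root. The strongest member in flower and flower bud, Dlo_032776.1, leaned the other way, under 2-fold. It had 283.06 FPKM in flower and 182.32 FPKM in flower bud (0.63), and at most 0.27 FPKM elsewhere.

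The family of Kunitz-type inhibitors of proteases had 2 of 9 members higher in flower and 3 in flower bud. After scaling the 3 became 1. Dlo_019783.1 had 162.21 FPKM in flower and 1.38 FPKM in flower bud (6.10), a small amount beside its 11104.71 FPKM in seed. Dlo_019810.1 had 1505.10 FPKM in flower and 1504.63 FPKM in flower bud (0.00).

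The remaining families had genes on both sides or few past 2-fold. The xyloglucan fucosyltransferase family, which decorates a wall polymer, had 2 of 7 members higher in flower and 1 in flower bud. Its member Dlo_024660.1 had 241.04 FPKM in flower and 58.93 FPKM in flower bud (2.01). The cinnamyl alcohol dehydrogenase-like family, whose founders make lignin precursors, had 1 of 6 members higher in flower and 2 in flower bud. The first, Dlo_000548.1, had 85.70 FPKM in flower and 19.07 FPKM in flower bud (2.11). Dlo_000545.1 had 3.53 FPKM in flower and 24.01 FPKM in flower bud (-2.46). The subtilase family of proteases had 2 of 8 members higher in flower and 1 in flower bud. In flower these were Dlo_018071.1, with 6.09 FPKM in flower and 0.59 FPKM in flower bud (2.16), and Dlo_018074.1, with 6.79 FPKM in flower and 2.15 FPKM in flower bud (1.31). In flower bud it was Dlo_013302.1, which had 3.25 FPKM in flower and 34.18 FPKM in flower bud (-3.05). The wall-associated kinase Dlo_017857.1 had 11.45 FPKM in flower and 29.60 FPKM in flower bud (-1.30), the single member past 2-fold of 10. The glycosyltransferase families, which attach sugars to small molecules, were UGT79, with 1 of 5 members higher in flower and 1 in flower bud, and UGT83 and UGT71, each with 2 of 9 higher in flower and 0 in flower bud. The UGT79 gene Dlo_027070.1 had 0.10 FPKM in flower and 6.39 FPKM in flower bud and was listed at 0 elsewhere. The UGT83 gene Dlo_004336.1 had 8.57 FPKM in flower and 2.14 FPKM in flower bud, and the UGT71 gene Dlo_010986.1 had 12.81 FPKM in flower and 5.43 FPKM in flower bud. The major latex protein family had 0 of 3 members past 2-fold, with Dlo_011467.1 at 5.37 FPKM in flower and 8.78 FPKM in flower bud, and the S-protein homologues were at 0 in both libraries.

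**Figure D5:**
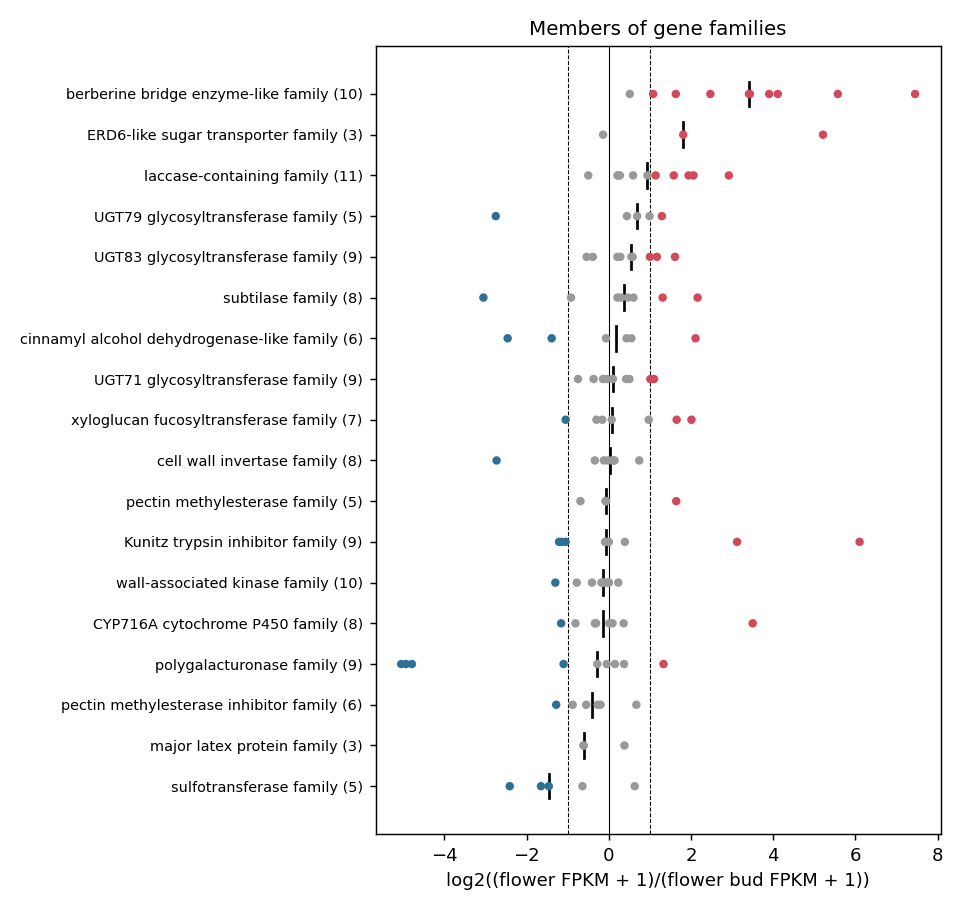
Difference log2((flower FPKM + 1)/(flower bud FPKM + 1)) of each compared member (points) of 18 gene families, with the number of members in brackets and the family median as a black bar. Points right of the dashed line at 1 are higher in flower and points left of -1 are higher in flower bud; the berberine bridge enzyme-like family has 9 of 10 points on the right and the polygalacturonase family 3 points near -5.

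Of the compared genes, 722 carry an annotation in the study's tables of sequence variants, some of them members of the types and families above. Of these, 41 were higher in flower (5.68%, beside 7.51% of all compared genes) and 61 in flower bud (8.45%, beside 11.3%), so both shares were below those of all compared genes. Towards flower, Dlo_025848.1, a dihydroflavonol 4-reductase (DFR2) of anthocyanin and tannin synthesis, had 80.90 FPKM in flower and 4.87 FPKM in flower bud (3.80), and 540.70 FPKM in root. Dlo_005033.1, with a CBS domain, had 79.37 FPKM in flower and 1.13 FPKM in flower bud (5.24). The adenine phosphoribosyltransferase Dlo_022699.2, which recycles adenine, had 14.20 FPKM in flower and 0.60 FPKM in flower bud (3.25). The glycosyltransferase dlo_037394.1 had 7.66 FPKM in flower and was listed at 0 in flower bud.

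Towards flower bud, the gibberellin receptor gene Dlo_032487.1 (GID1B) had 3.70 FPKM in flower and 21.52 FPKM in flower bud (-2.26). The cytochrome P450 Dlo_013337.1 is annotated both as a putative flavonoid 3-hydroxylase and as a ferulate-5-hydroxylase. It had 0.57 FPKM in flower and 15.37 FPKM in flower bud (-3.38), and at most 0.09 FPKM elsewhere. The 3-oxoacyl-[acyl-carrier-protein] synthase Dlo_014084.1, of fatty acid synthesis, had 0.38 FPKM in flower and 10.49 FPKM in flower bud (-3.06), and at most 0.69 FPKM elsewhere. These 2 enzymes were near 0 in all libraries but flower bud. The proton pump subunit Dlo_016381.1 had 3.15 FPKM in flower and 26.60 FPKM in flower bud (-2.73), and the ABC transporter Dlo_029374.1 had 2.93 FPKM in flower and 20.54 FPKM in flower bud (-2.45). The dioxygenase Dlo_032762.1 had 9.49 FPKM in flower and 98.79 FPKM in flower bud (-3.25), and was mainly a gene of stem (1086.37 FPKM) and leaf (980.47 FPKM).

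Among genes with no annotation here, some differences were larger than those of any gene named above. Dlo_020986.1 had 843.22 FPKM in flower and 0.32 FPKM in flower bud (9.32), and dlo_034288.1 had 578.72 FPKM in flower and 0.16 FPKM in flower bud (8.97). Dlo_030611.1 had 0.58 FPKM in flower and 6459.16 FPKM in flower bud, and at most 2.32 FPKM in the other 7 tissues. Of these 3 genes, the flower bud gene had the highest level. Dlo_023850.1 was listed at 0 in flower and had 1116.44 FPKM in flower bud. The highest gene of flower bud, Dlo_019949.1, had 7685.55 FPKM in flower and 11712.56 FPKM in flower bud (-0.61), and it was also the second highest of flower. It was high in every tissue, from 861.14 FPKM in leaf to 24022.25 FPKM in pericarp, its highest level. The second highest of flower bud, Dlo_017661.1, had 4491.25 FPKM in flower and 8038.71 FPKM in flower bud (-0.84).

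In both directions, the share of genes expressed in every other tissue was smaller than among the compared genes as a whole, with no test. The compared genes include those under 1 FPKM in both libraries, which cannot be counted as higher. The bases of the shares below are therefore unlike, and shares matched for expression level were not computed. Of those higher in flower, 33.3% had at least 1 FPKM in all 7 other tissues, and of those higher in flower bud 33.6%, beside 50.4% of all compared genes. Genes listed at 0 in all 7 other tissues were 58 of 1845 in flower (3.14%) and 176 of 2769 in flower bud (6.36%), beside 3.62% of all compared genes. Among the other 7 tissues, the genes higher in flower most often peaked in root (24.8%, beside 19.5% of all compared genes), and the genes higher in flower bud in seed (16.8%, beside 13.3%) and root (16.4%). Their median level in root was 9.06 FPKM for the genes higher in flower and 2.99 FPKM for those higher in flower bud, and 7.99 FPKM for all compared genes.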

How the data were processed

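The authors sequenced 1 poly(A) library per tissue on an Illumina HiSeq system and removed adaptor, low-quality and contaminating reads. Per the submitters' processing notes, reads were aligned with TopHat2 2.0.10, to the longan draft genome by the study's methods. That genome is of another cultivar, “HHZ”. The study reported a lower share of mapped reads than in peach and proposes variation between the cultivars as the reason. How far this affects genes listed at 0 was not tested. The tool that computed the deposited FPKM values, and how it assigned fragments shared by gene copies, remain not given in the sources used here. FPKM values have 2 decimals; all 9 columns were mapped to tissues by name (0 unmapped).

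Values were used as deposited (Python 3.11.15, numpy 2.4.6, pandas 2.3.3, matplotlib 3.10.9). Differences were computed after adding 1 FPKM, with a limit of 1 on the log2 scale, over genes above 0 FPKM in flower or flower bud. The calculation was run on simulated data with built-in 4-fold changes and an assumed depth. This checks the arithmetic only, since variation between libraries was not simulated. With 1 library per tissue, neither a test nor an interval was computed, and the depth is unknown.

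Named genes were LFY, NOZZLE, MIKC and YABBY genes of at least 1 FPKM (those under it in counts, with 1 named); of at least 5 FPKM, the 12 transcription factor genes and 6 annotated genes with the largest differences in each direction, the largest member of each family and 2 unannotated genes in each direction; and the 2 highest genes of each library. Exceptions are stated. Members and lists were chosen with earlier results of these data known. Transcription factor types, families and annotations come from the study's supplementary lists.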

Additional observations from a re-analysis of the deposited data

How the results depend on the processing

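No paired analysis was possible because flower and flower bud have 1 library each, and for the same reason no replicate could be left out. With 0.1 FPKM added in place of 1 FPKM, 3432 genes were higher in flower and 5445 in flower bud, and of the transcription factor genes 223 were higher in flower and 299 in flower bud. With 5 FPKM added, 1051 genes were higher in flower and 1191 in flower bud, and of the transcription factor genes 87 in flower and 78 in flower bud. At the 4-fold limit, 552 genes were higher in flower and 742 in flower bud, and of the transcription factor genes 32 in flower and 46 in flower bud. A minimum of 5 FPKM in flower or flower bud left 1376 genes higher in flower and 1843 in flower bud. Of the transcription factor genes it left 113 higher in flower and 104 in flower bud, so more of them were then higher in flower, as also with 5 FPKM added. Of the 85 genes named by the stated rules, 10 no longer reached 2-fold with 5 FPKM added. With 0.1 FPKM added or after median-ratio scaling, 0 of the 85 that were past 2-fold lost it, and 0 changed direction under these settings. Genes named outside these rules are not in this count. Of them, Dlo_019494.1 had a difference of -1.10, which came to -0.99 after scaling. Some rows of the table hold the same 9 values: 751 compared genes with at least 3 values above 0 and a highest value of at least 1 FPKM fall into 324 such sets. None of the 85 genes named by the stated rules is among them, but the examples of identical rows given at the end are. With each set counted once, a choice made after seeing the data, 1798 genes were higher in flower and 2729 in flower bud, and of the transcription factor genes 135 in flower and 155 in flower bud. Each set was represented by its first gene, so a transcription factor gene behind a first gene not on the list is missing from the last counts.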

Other observations

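The sides of genes with consecutive numbers were counted. In the annotated genes, 160 of 161 pairs with numbers 1 to 3 apart were on the same chromosome, so neighbouring numbers mostly stand for neighbouring genes. Of 1507 genes higher in flower whose next number was in the table, 193 had a next gene that was also higher in flower (12.8%, beside 7.51% of all compared genes). Of 2276 genes higher in flower bud, 309 did so in flower bud (13.6%, beside 11.3%). The next gene could be any gene of the table, also 1 of the 5450 at 0 in both libraries. The 7.51% and 11.3% leave those genes out, so the bases are unlike, and a share on the same base was not computed. Runs of at least 4 such genes numbered 5 in flower, with 23 genes, and 4 in flower bud, with 17 genes, and no run was longer than 5. In flower 1 run was the berberine bridge enzyme-like block from Dlo_005687.1 to Dlo_005691.1, and in flower bud 1 run was the polygalacturonase block from Dlo_019491.1 to Dlo_019494.1. Another in flower bud ended with the MIKC gene Dlo_009139.1. The part of shared fragments between copies in these runs was not tested.

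Annotated genes were also counted by domain, beside the 7.51% higher in flower and 11.3% higher in flower bud of all compared genes. Of 22 genes with an NB-ARC domain, the core of intracellular immune receptors, 0 were higher in flower and 2 in flower bud (median difference -0.38). Of 35 genes with leucine-rich repeats 1 was higher in flower and 2 in flower bud (-0.20), and of 55 with a protein kinase domain 4 were higher in each tissue (-0.02). Of 12 genes with the S-locus glycoprotein domain of receptor kinases 2 were higher in flower (16.7%) and 1 in flower bud (8.33%), and of 13 with a bulb-type lectin domain 2 were higher in flower (15.4%) and 1 in flower bud (7.69%). Genes with an AAA+ ATPase domain had 1 of 20 higher in flower and 4 in flower bud (-0.41).

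Transcription factor genes with the same values as another gene in all 9 tissues were found in at least 11 sets, those whose first gene is on the list. These examples were chosen after their values were seen. The ERF genes Dlo_007342.1 and Dlo_010824.1 were both listed with 253.42 FPKM in flower and 57.30 FPKM in flower bud. The LOB genes Dlo_000883.1 and Dlo_033087.1 were both listed with 195.22 FPKM in flower and 74.07 FPKM in flower bud. These rows cannot be told apart.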
